A study of Mus musculus with 4 samples.

Results

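The 31 genes described here are a list drawn up by name, out of 32285 genes in the mRNA matrices of mouse B cells, and they cover sterol synthesis and cholesterol handling. The list holds 8 mevalonate-pathway genes, 12 genes from squalene to cholesterol, 5 genes that control the SREBP transcription factors or encode them (Insig1, Insig2, Scap, Srebf1 and Srebf2), the sterol carriers Stard4 and Npc1, and 4 genes of export and oxysterol sensing (Abca1, Abcg1, Apoe and Nr1h2). The first 20 are called enzymes below. The list was drawn up with earlier results of these data known, so that no count over it is independent support for the list. Of the 31 genes, 17 were among the 3000 variable genes and were left out when the cells were clustered. Differences between clusters are given as descriptions, with no test.

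Cells make cholesterol from acetyl units through the mevalonate pathway, which ends in farnesyl and geranylgeranyl diphosphates, and through the later steps that join farnesyl units into squalene, close the ring to lanosterol and trim it to cholesterol. When membrane sterol is low, the SCAP escort protein carries the SREBP transcription factors to the Golgi, where they are cut and released, and SREBP2 in particular turns on the genes of the pathway. When sterol is plentiful, INSIG proteins hold SCAP back, while liver X receptors sense oxysterols and turn on the export genes Abca1, Abcg1 and Apoe. Germinal centre (GC) B cells divide in the dark zone (DZ) and are selected by T cell help in the light zone (LZ).

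The cells came from 6 CD45.1+ wild-type recipient mice, 3 per group. Each recipient was given a mixture of splenic MD4 B cells, which carry a transgenic immunoglobulin specific for hen egg lysozyme (HEL), and was immunized with sheep red blood cells coupled to HEL. The CD45.1+ part of the mixture was Dock8wt/wt in both groups. The CD45.2+ part carried the BCL2 transgene (BCL2.Tg), a survival gene expressed in B cells, and was Dock8wt/wt in the first group and Dock8cpm/cpm, a loss-of-function point mutation, in the second. On day 8 the splenic B cells of the 6 mice were labelled with 6 hashtag antibodies, pooled and sorted as HEL+CD95+ into a CD45.1+ and a CD45.2+ tube, each of which gave 1 mRNA library and 1 hashtag library. The study describes the Dock8wt/wt cells of its genotype comparison as male and the Dock8cpm/cpm cells as female in origin, so sex cannot be told apart from genotype in the CD45.2+ cells. In Dock8wt/wt recipients, 5 of 6 sex-linked genes tested also passed the edgeR test of CD45.2+ against CD45.1+ cells described below. Sort, transgene, library and donor sex therefore cannot be told apart, and Ebp and Nsdhl lie on the X chromosome.

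The hashtags gave 6569 singlets in the CD45.2+ library and 3294 in the CD45.1+ library, and called 8048 CD45.2+ barcodes doublets. After the filters, 9692 cells remained. The CD45.2+ library held 2007, 2607 and 1672 Dock8wt/wt cells from mice 1 to 3 but only 57, 44 and 101 Dock8cpm/cpm cells. Fewer CD45.2+ cells were kept here than the methods of the study state. The CD45.1+ library held 339 to 947 cells per mouse. Summed UMIs (unique molecules) per mouse and sort ran from 342465 to 18036775, and 38 barcodes occurred in both mRNA libraries. The cells fell into 16 clusters, named from fixed marker lists as DZ-like, LZ-like, early GC-like, activated, activated/memory-like and plasma cell-like cells, cycling plasmablast-like cells and T cells. A cluster of 214 cells, 190 of them CD45.2+ cells of Dock8wt/wt mice, shared 10 markers with the list for LZ cells on the way to plasma or memory cells. Its median of 1739.5 UMIs per cell was the lowest of the clusters, so it was kept apart from the states compared below, but it stayed in the sums of all B cells other than plasma cells. Levels are normalized UMI counts, that is, UMIs of a gene per 1000000 UMIs summed over the cells of 1 mouse and sort. Dock8 itself lay at 105 to 120 normalized UMIs in the Dock8wt/wt and 95.8 to 110 in the Dock8cpm/cpm CD45.2+ cells outside the plasma cells. A point mutation need not lower its transcript, so Dock8 does not check the genotype here.

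Promoters are shown for 4 members that the later results return to. They come from RefSeq on GRCm38.p6, and run from 250 bases before to 50 bases after the gene's start. Of the 31 genes, 25 were matched to a promoter. The letters searched on both strands were TCACNCCAC (a core of the sterol response element), CCAAT and GGGCGG (the boxes bound by NF-Y and SP1), and capitals mark their matches, written ATTGG or CCGCCC where the match is on the other strand. The printed matches do not overlap each other.

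Hmgcs1, which makes HMG-CoA at the entry to the pathway, chr13:119690101-119690400, plus strand: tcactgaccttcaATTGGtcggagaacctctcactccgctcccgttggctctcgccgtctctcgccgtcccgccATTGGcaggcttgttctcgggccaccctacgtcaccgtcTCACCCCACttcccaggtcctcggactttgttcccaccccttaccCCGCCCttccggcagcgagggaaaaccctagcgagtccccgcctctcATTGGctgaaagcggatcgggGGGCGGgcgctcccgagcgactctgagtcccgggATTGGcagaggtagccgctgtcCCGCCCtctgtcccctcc

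Idi1, which interconverts the isopentenyl building blocks, chr13:8885356-8885655, plus strand: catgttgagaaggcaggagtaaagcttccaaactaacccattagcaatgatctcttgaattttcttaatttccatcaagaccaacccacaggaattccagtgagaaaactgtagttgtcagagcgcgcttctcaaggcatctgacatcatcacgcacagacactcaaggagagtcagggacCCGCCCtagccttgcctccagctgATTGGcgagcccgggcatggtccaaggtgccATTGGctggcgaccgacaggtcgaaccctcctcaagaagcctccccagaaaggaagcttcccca

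Cyp51, which demethylates lanosterol, chr5:4104648-4104947, minus strand: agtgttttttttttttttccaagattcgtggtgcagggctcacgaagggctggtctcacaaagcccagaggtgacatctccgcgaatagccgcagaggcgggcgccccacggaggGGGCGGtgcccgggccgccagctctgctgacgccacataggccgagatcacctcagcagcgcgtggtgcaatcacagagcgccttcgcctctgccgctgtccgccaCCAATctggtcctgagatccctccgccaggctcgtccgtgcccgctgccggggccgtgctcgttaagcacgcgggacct

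Abca1, which exports cholesterol to lipoproteins, chr4:53159846-53160145, minus strand: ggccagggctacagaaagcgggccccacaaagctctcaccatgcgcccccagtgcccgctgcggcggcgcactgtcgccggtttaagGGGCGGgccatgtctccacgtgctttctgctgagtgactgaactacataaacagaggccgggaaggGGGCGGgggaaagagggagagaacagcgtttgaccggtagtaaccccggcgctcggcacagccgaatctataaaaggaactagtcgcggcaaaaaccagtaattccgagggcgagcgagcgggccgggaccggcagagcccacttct

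The Hmgcs1 promoter held 1 match to TCACNCCAC, and it was the only one among the 25 matched members, beside 1.24% of all 32851 promoters and 1.44% of the 27025 genes they belong to. CCAAT was found for 20 of the 25 genes, 16 of them among the 17 matched enzymes, beside 37.4% of all promoters and 41.1% of genes. GGGCGG was found for 21 of the 25 genes, beside 35.7% of all promoters and 38.2% of genes. A gene with several promoters counted once if any of them held the letters. The Abca1 promoter held 2 GGGCGG matches and no CCAAT match.

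Across the states of CD45.2+ cells in Dock8wt/wt mice, transcripts of the enzymes were highest in DZ-like cells and low in activated/memory-like cells, while the level in plasma cell-like cells depended on the scaling. The summed level of the 20 enzymes was 1038, 1091 and 1119 normalized UMIs in the DZ-like cells of mice 1 to 3, and 589, 752 and 733 in LZ-like cells. It was 478, 505 and 481 in early GC-like cells and 363, 398 and 381 in activated/memory-like cells. In plasma cell-like cells the mean was 379 over all UMIs but 612 with immunoglobulin genes left out, and on that scale early GC-like cells had 507 and activated/memory-like cells 394. Every DZ-like value lay above every value of the 6 other states plotted. The low-depth cluster, which is not plotted, had 584, 824 and 1174 over 190 cells. CD45.1+ cells of these mice had a like order of states, with higher DZ-like and LZ-like levels: 1188, 1348 and 1495 in DZ-like and 849, 978 and 930 in LZ-like cells, while their activated/memory-like cells had 476, 279 and 390. Lbr, the lamin B receptor, which is a sterol reductase and also a structural protein of the nuclear envelope, supplied more UMIs to the sum in DZ-like cells than any other enzyme.

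**Figure D1:**
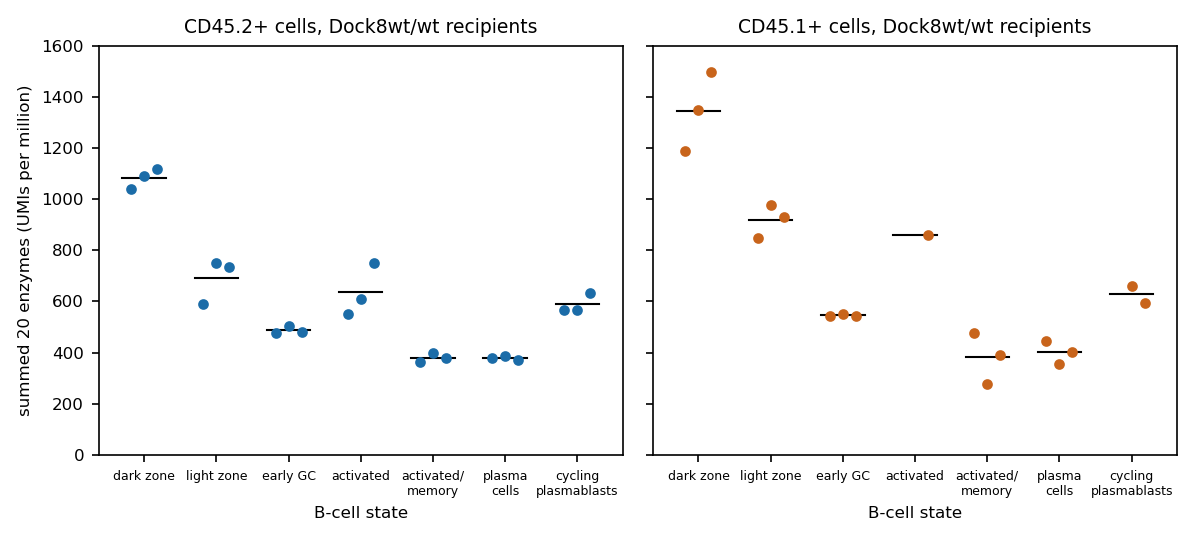
Summed normalized UMI counts of the 20 enzymes (y axis) in each B-cell state (x axis) of the Dock8wt/wt recipients, CD45.2+ cells on the left and CD45.1+ cells on the right. Points are mice with at least 10 cells in the state and lines are their means. In CD45.2+ cells the dark zone points sit between 1038 and 1119, above every other state plotted; the low-depth cluster and T cells are left out.

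Of the 20 enzymes, 14 were higher in DZ-like than in LZ-like CD45.2+ cells in all 3 mice, as were 31.9% of the 11665 genes with enough UMIs, and the median log2 difference was 0.41 for the enzymes and -0.00 for all genes. Against activated/memory-like cells, 18 enzymes were higher in all 3 mice, beside 48.1% of genes, with medians of 1.68 and 0.22. Against early GC-like cells, 18 were again higher, beside 38.1% of genes. Against plasma cell-like cells 19 were higher, beside 63.7% of genes. Immunoglobulin transcripts fill much of a plasma cell library, and with them left out 16 were higher, beside 40.0% of genes. In CD45.1+ cells, 11 enzymes were higher in DZ-like than in LZ-like cells, beside 27.5% of genes, and 13 were higher than in activated/memory-like cells, beside 47.2%.

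Among the mevalonate genes, Idi1 lay at 98.9, 111 and 107 normalized UMIs in the DZ-like CD45.2+ cells of mice 1 to 3, at 49.7, 53.6 and 53.0 in LZ-like cells and at 8.79, 10.7 and 9.31 in activated/memory-like cells. Its 3 groups of values did not overlap. Fdps, which makes farnesyl diphosphate, lay at 123, 137 and 131 in DZ-like, 45.8, 73.4 and 62.4 in LZ-like and 18.6, 16.5 and 18 in activated/memory-like cells. Hmgcs1, whose promoter is shown above, lay at 72.5, 79.0 and 87.5 in DZ-like and 39.9, 54.3 and 57.7 in LZ-like cells. In activated/memory-like cells it was at 15.6, 21.3 and 16.7. Acat2, which joins acetyl units at the first step, followed the same order, with means of 39.6 in DZ-like and 8.0 in activated/memory-like cells. Ggps1, which extends farnesyl to geranylgeranyl diphosphate for protein prenylation, ran the other way. It lay at 24.6, 27.9 and 30.9 in DZ-like cells and at 46.9, 51.4 and 50.4 in activated/memory-like cells, again without overlap.

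Among the genes from squalene to cholesterol, Sqle, the squalene epoxidase, lay at 36.7, 32.6 and 40.9 normalized UMIs in DZ-like and at 6.19, 1.94 and 9.63 in activated/memory-like CD45.2+ cells. Cyp51 lay at 69.4, 67.5 and 70.2 in DZ-like and 12.7, 12.1 and 12.8 in activated/memory-like cells. Lbr lay at 251, 263 and 290 in DZ-like, 76.9, 120 and 118 in LZ-like and 69.7, 74.7 and 63.5 in activated/memory-like cells. Msmo1, which removes methyl groups from the ring, did not separate the zones, with 60.1, 55.0 and 56.0 in DZ-like and 51.6, 63.3 and 59.6 in LZ-like cells. Ebp, the sterol isomerase, departed from most of the other enzymes. It lay at 35.9, 38.3 and 34.7 in DZ-like, 64.6, 64.5 and 75.9 in plasma cell-like and 103, 95.3 and 129 in cycling plasmablast-like cells, and these 3 groups did not overlap. In CD45.1+ cells Ebp was likewise at 99.7, 92.8 and 117 in plasma cell-like and 34.2, 35.0 and 35.6 in DZ-like cells. Over the 7 states of CD45.2+ cells, which share a library, the correlation with the summed other enzymes was 0.97 for Idi1 and -0.51 for Ebp, and 0.97 and -0.20 with immunoglobulin genes left out. For Ggps1 it was -0.30, and -0.77 with them left out, and for Mvd 0.33 and 0.03.

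**Figure D2:**
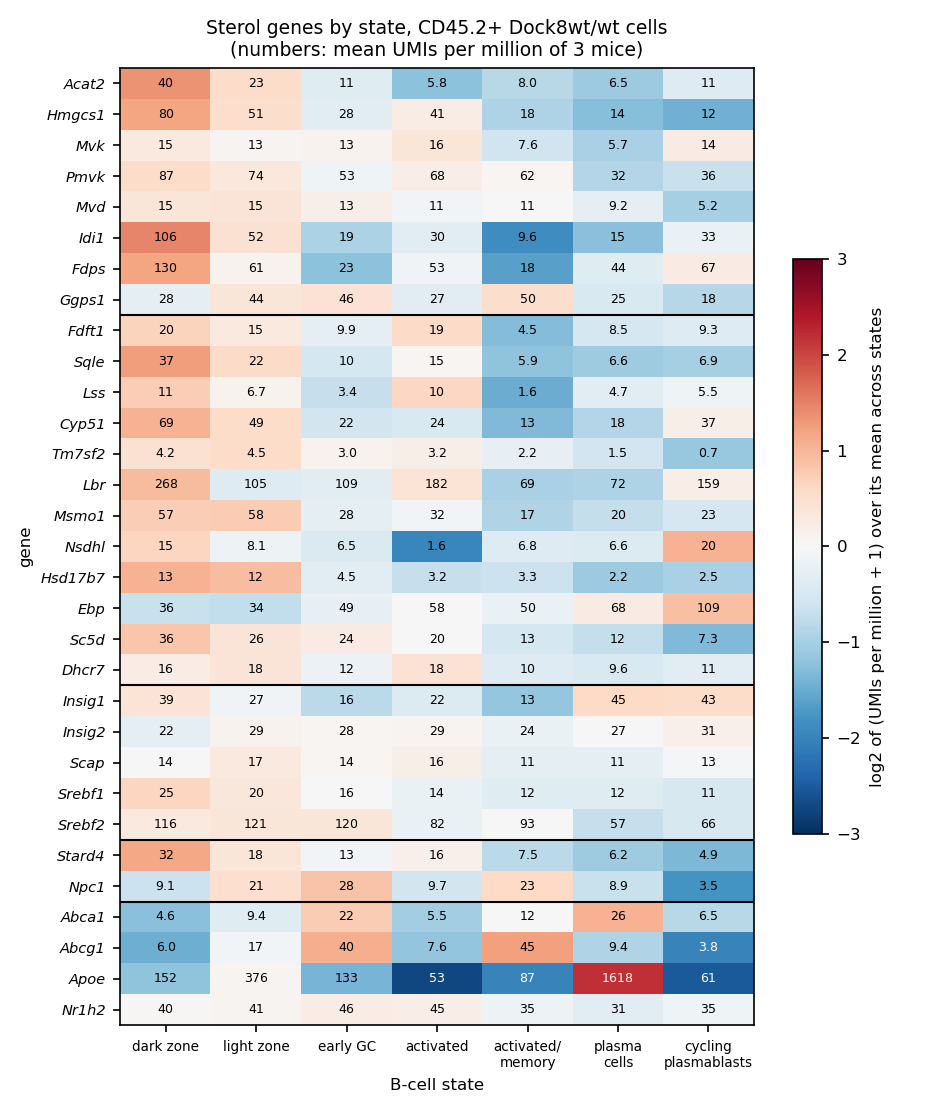
Mean normalized UMI counts of the 31 genes (rows, in order of their roles) in 7 states (columns) of CD45.2+ cells from 3 Dock8wt/wt mice. Printed numbers are the means and colour is the log2 level relative to the gene's mean over states. Most enzymes are highest in the dark zone column, whereas Abcg1, Npc1 and Ggps1 are lower there than in the activated/memory column.

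Among the control genes, Srebf2, the SREBP most tied to sterol synthesis, lay at 109, 116 and 122 normalized UMIs in DZ-like and 110, 143 and 110 in LZ-like CD45.2+ cells, which overlapped, and at 59.7, 61.4 and 50.6 in plasma cell-like cells. With immunoglobulin genes left out, plasma cell-like cells were no longer lowest for Srebf2: its lowest mean was 84.2, in activated cells. Srebf1, the SREBP tied more to fatty acids, had a mean of 25.5 in DZ-like and 12.2 in activated/memory-like cells. Insig1, itself an SREBP target, lay at 43.1, 36.2 and 38.7 in DZ-like and 11.7, 17 and 8.98 in activated/memory-like cells. In plasma cell-like cells it was at 42.8, 49.0 and 43.0, with a mean of 72.4 when immunoglobulin genes were left out. Insig2 lay between 19.4 and 36.2 in the 3 mice in the DZ-like, LZ-like, early GC-like, activated/memory-like, plasma cell-like and cycling plasmablast-like cells. With immunoglobulin genes left out, its highest mean was 44.2, in plasma cell-like cells, and its lowest 23.1, in DZ-like cells. In CD45.1+ cells on that scale these were 52.4, in plasma cell-like, and 13.4, in activated/memory-like cells.

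Of the carriers, Stard4, which moves cholesterol between membranes, followed the enzymes with 28.9, 33.7 and 33.8 normalized UMIs in DZ-like and 4.89, 8.24 and 9.31 in activated/memory-like CD45.2+ cells. Npc1, which lets cholesterol out of lysosomes, had the opposite order, with 8.88, 8.83 and 9.58 in DZ-like and 24.4, 22.3 and 21.8 in activated/memory-like cells. The exporter Abcg1 did the same with 6.19, 5.43 and 6.38 in DZ-like, 15.6, 24.5 and 12.3 in LZ-like and 44.6, 43.2 and 46.5 in activated/memory-like cells. In CD45.1+ cells Abcg1 lay at 2.54, 1.46 and 0.79 (4 UMIs in all) in DZ-like and 28.0, 43.6 and 31.6 in activated/memory-like cells. Abca1 was at 3.72, 4.98 and 5.11 in DZ-like and 30.2, 28.6 and 20.4 in plasma cell-like CD45.2+ cells. Nr1h2, the liver X receptor beta, lay between 27.4 and 50.3 in DZ-like, LZ-like, early GC-like, activated/memory-like, plasma cell-like and cycling plasmablast-like cells. With immunoglobulin genes left out, its highest mean was 50.1, in plasma cell-like cells, and its lowest 36.2, in activated/memory-like cells.

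Within the zones the enzyme level also differed between clusters. In CD45.2+ cells the summed enzymes were at a mean of 938 normalized UMIs in the DZ1-like cluster (led by Mcm genes of DNA replication) and 1316 in the DZ3-like cluster (led by Cdc20 and Ccnb1, genes of mitosis). They were at 486 in the LZ1-like and 851 in the LZ2-like cluster (led by Egr1 and Cd83). The LZ2-like cluster shared 14 markers with the LZ2 list and 12 with the LZ4 list, so its name is not firm. From DZ1-like to DZ3-like cells 11 enzymes were higher in all 3 mice, beside 20.7% of genes, and from LZ1-like to LZ2-like cells 12 were, beside 32.3%. The 6 cycling markers summed to 2546 normalized UMIs in DZ-like and 1801 in cycling plasmablast-like cells but 270 in LZ-like and 153 in activated/memory-like cells. Enzyme levels and cycling markers were thus both highest in DZ-like cells, and the part of cell division in the enzyme levels was not tested.

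Apoe, the apolipoprotein E that carries exported lipid, varied widely between mice. In plasma cell-like CD45.2+ cells it lay at 1438, 3049 and 366 normalized UMIs in Dock8wt/wt mice 1 to 3, and in LZ-like cells at 192, 759 and 177. In DZ-like cells it was at 135, 196 and 125. Mouse 2 was highest in each of these states. Plasma cell-like clusters differed: the PC1-like cluster had 2683, 5710 and 478 and the PC3-like cluster 56.6, 73.6 and 47.1. In CD45.1+ cells the LZ-like values were 491, 978 and 179 and the plasma cell-like values 84.9, 757 and 25.5. Both were again highest in mouse 2, but the plasma cell-like values of CD45.1+ cells rest on few cells. In mouse 2 a single cell held 282 of the 284 Apoe UMIs of the PC1-like cluster. A cell of its PC2-like cluster held 244 of 534. In mouse 1 a PC2-like cell held 30 of 37, and in mouse 3 a PC3-like cell held 32 of 48.

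**Figure D3:**
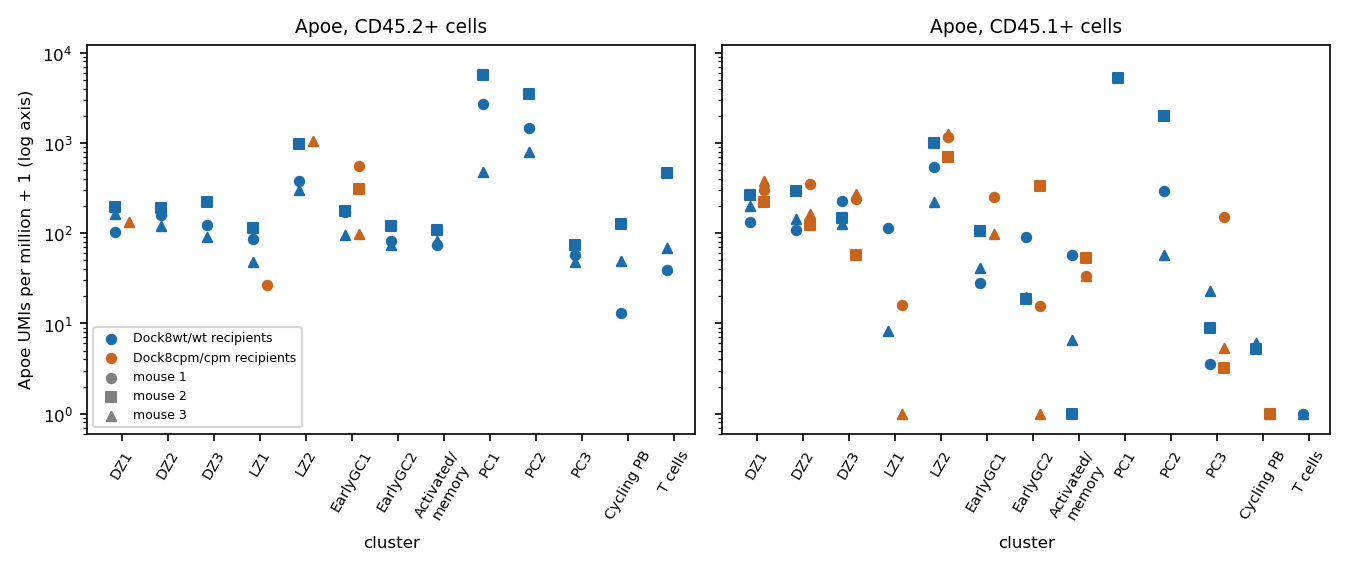
Apoe normalized UMI count plus 1 (y axis, log scale) in each cluster (x axis) for CD45.2+ cells (left) and CD45.1+ cells (right). Colours are the recipient groups and symbols the mice with at least 10 cells. In CD45.2+ cells the PC1 cluster reaches 5710 in mouse 2, while PC3 stays between 47.1 and 73.6.

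Free RNA can place Apoe UMIs in cells that do not express it, so T cells of the same libraries were used as a background. After each cell was thinned to 2000 UMIs, 19.1% of the 47 T cells kept from Dock8wt/wt recipients in the CD45.2+ library had an Apoe UMI (exact 95% interval 9.15 to 33.3), against 40.4% of LZ-like cells (36.9 to 44.0), 28.0% of plasma cell-like cells (25.6 to 30.4) and 22.3% of DZ-like cells. Of these, the interval of the LZ-like cells lay above that of the T cells, while the plasma cell-like and DZ-like shares lay within it. The shares in early GC-like cells (17.8%), activated/memory-like cells (15%) and cycling plasmablast-like cells (8.08%) were below that of T cells, so they were not told apart from background. Thinning removes a larger part of the UMIs of deeper cells. The T cell share is therefore no firm limit for states deeper than T cells. Before thinning, the shares were 30.4% in T cells, 63.0% in LZ-like and 50.4% in plasma cell-like cells, at median depths of 3308, 5354 and 7848 UMIs per cell. In the DZ-like clusters of CD45.2+ cells the unthinned share ran from 53.6% to 69.1% over the Dock8wt/wt mice. The median depths of these clusters over both libraries were 7863 to 10235. In the CD45.1+ library 0 of 44 T cells had an Apoe UMI, which allows a share of up to 6.82% by a limit of 3 counts and 8.04% by the exact 95% interval, and 45.0% of thinned LZ-like cells of the Dock8wt/wt recipients had one. Their thinned plasma cell-like share of 3.92% lay below both limits, although 12 of 577 plasma cell-like cells in that library held 10 or more Apoe UMIs, against 0 of its 44 T cells. Of 1363 plasma cell-like CD45.2+ cells 200 held 10 or more Apoe UMIs, and 0 of these 200 held a UMI of the macrophage list, beside 34 of the other 1163. Of 63 T cells in that library, 2 held 10 or more. The T cells of Dock8wt/wt mouse 2 there held 49 Apoe UMIs, up to 23 in a cell. Whether T cells held Apoe only as free RNA was not tested. Intervals cover counting error only.

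CD45.2+ BCL2.Tg cells were compared with the CD45.1+ cells of the same Dock8wt/wt recipients, over all B cells other than plasma cells. Several enzymes were lower and Abcg1 was higher in the CD45.2+ cells. By edgeR's quasi-likelihood test with the mouse as a block, 7 of the 31 members passed an adjusted p of 0.05 over all genes, beside 3.2% of the 10471 genes tested. Of these, 6 were enzymes that fell, beside 1.45% of all genes that fell, and Abcg1 was higher, beside 1.75% of all genes. The median log2 difference was -0.38 over the 20 enzymes and 0.00 over all genes.

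Fdps (chr3:89093588-89101959, minus strand, GRCm38) was at 62.4, 73.4 and 76.5 normalized UMIs in the CD45.2+ cells of mice 1 to 3 and at 130, 127 and 122 in their CD45.1+ cells. The groups did not overlap, and the log2 difference was -0.84 ± 0.09 (SE; edgeR adjusted p = 0.000775). Cyp51 (chr5:4081145-4104746, minus strand) was at 39.9, 45.4 and 44.2 against 72.7, 87.5 and 61.6, a log2 difference of -0.76 ± 0.11 (edgeR adjusted p = 0.00416). Sqle (chr15:59315077-59331192, plus strand) was at 19.3, 20.7 and 26.6 against 34.3, 37.1 and 37.2, again without overlap, a log2 difference of -0.70 ± 0.13 (edgeR adjusted p = 0.0136). Nsdhl, an X-linked dehydrogenase that works with Msmo1, also fell, by 0.76 on the log2 scale, as did Idi1, by 0.43, and Pmvk, the phosphomevalonate kinase, by 0.41.

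Abcg1 (chr17:31057675-31117988, plus strand) was at 27.7, 25.4 and 22.1 normalized UMIs in CD45.2+ and at 12.8, 9.97 and 12.8 in CD45.1+ cells, a log2 difference of 1.02 ± 0.17 (edgeR adjusted p = 0.00802). Every CD45.2+ value was above every CD45.1+ value. Hmgcs1 did not pass the test although its groups did not overlap (log2 difference -0.47, edgeR adjusted p = 0.0577). Lbr and Srebf2 had log2 differences of 0.03 and -0.02. Apoe was at 129, 288 and 112 in CD45.2+ and 204, 473 and 102 in CD45.1+ cells (edgeR adjusted p = 0.113). In all, 14 of 31 members did not overlap between the sorts, beside 24.4% of genes. Of the related lists, 0 genes passed the edgeR test among 11 of fatty acid synthesis, 9 of SREBP cleavage, 7 of other sterol transport, 3 of nuclear receptor partners and 13 of the isoprenoid branch. An unadjusted p under 0.05 was found for 6 of these 43 genes, beside 2023 of all 10471, DESeq2 called 0 of them, and the lists had median log2 differences from -0.02 to 0.09. Other settings called some genes of these lists. In LZ-like cells alone 1 gene each of other sterol transport, nuclear receptor partners and the isoprenoid branch was higher, beside 8.67% of all genes. In LZ-like and DZ-like cells together 2 of other sterol transport were higher and 1 of fatty acid synthesis was lower, beside 14.6%. With plasma cells included, every list but SREBP cleavage had called genes, beside 17.9%.

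**Figure D4:**
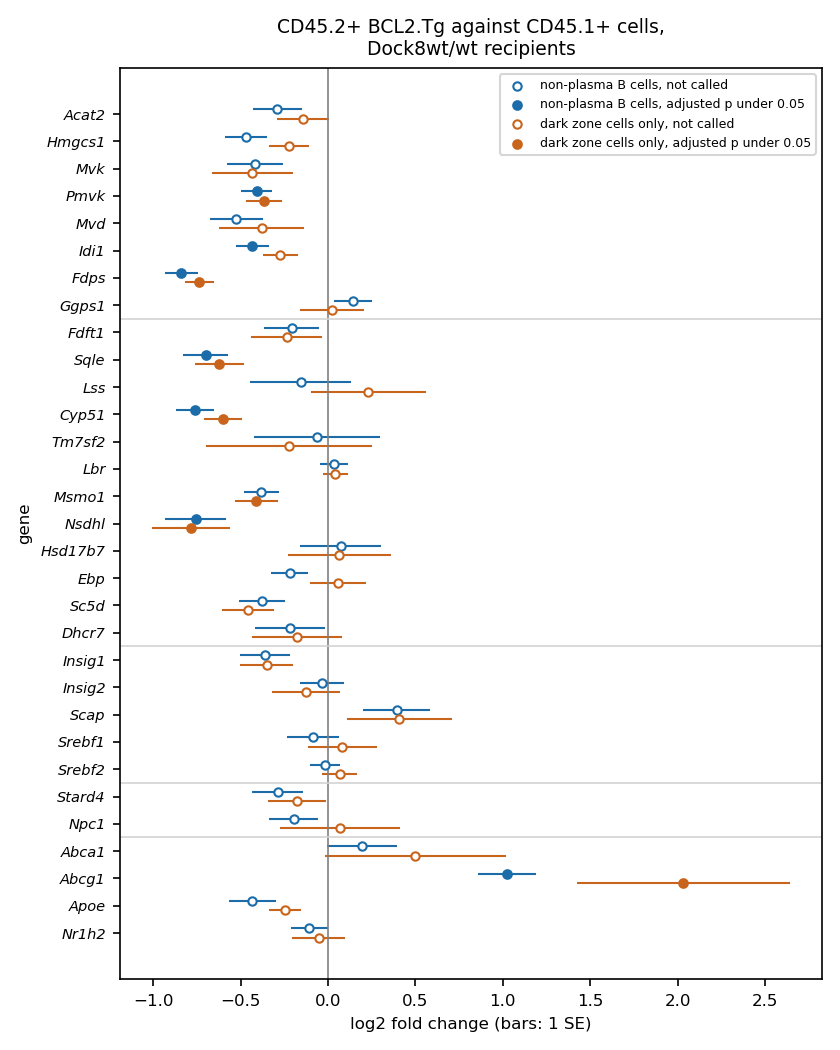
Log2 difference of CD45.2+ BCL2.Tg against CD45.1+ cells in 3 Dock8wt/wt recipients (x axis) for the 31 genes (y axis), for all B cells other than plasma cells and for dark zone cells alone. Bars are 1 SE and filled points passed an adjusted p of 0.05. Fdps at -0.84 and Abcg1 at 1.02 mark the ends among all B cells other than plasma cells.

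The sorts differed in their makeup. LZ-like cells were 157, 467 and 152 of 1627, 1928 and 1226 CD45.2+ cells and 109, 202 and 171 of 308, 374 and 628 CD45.1+ cells. Activated/memory-like cells were 467, 320 and 457 of these CD45.2+ cells and 47, 24 and 182 of these CD45.1+ cells. Early GC-like cells were 562, 587 and 165 against 49, 58 and 72, and DZ-like cells 369, 431 and 406 against 101, 88 and 181. The plasma cell list summed to 1051, 1063 and 874 normalized UMIs in CD45.2+ and 529, 600 and 422 in CD45.1+ cells, the macrophage list to 10.5, 13.4 and 6.80 against 94.9, 72.0 and 23.9, and the GC B cell list to 212, 257 and 247 against 342, 398 and 292. Early GC-like cells held 355 of the macrophage-list UMIs of these CD45.1+ cells. In the early GC-like CD45.1+ cells of both groups Lyz2 had 509 UMIs, while C1qa, C1qb and C1qc had 0. The macrophage sum of CD45.1+ cells thus rests mostly on Lyz2. The erythroid list summed to 27.3, 36.7 and 37.5 against 57.0, 54.3 and 60.8, and the T cell list to 22.9, 35.6 and 33.1 against 51.8, 65.9 and 36.6. The part of these differences in the result was not tested as such, but the comparison was repeated within states. It was not repeated in activated/memory-like cells alone. In LZ-like and DZ-like cells together 10 members were called, beside 14.6% of genes, and with plasma cells included 11, beside 17.9%. Within DZ-like cells alone 7 members were called, beside 6.1% of genes, with log2 differences of -0.74 for Fdps, -0.60 for Cyp51 and 2.03 for Abcg1, which had only 4 UMIs in the CD45.1+ DZ-like cells of the 3 mice. In LZ-like cells alone 4 were called (Fdps, Cyp51, Hmgcs1 and Apoe), beside 8.67% of genes. In early GC-like and activated cells alone 2 were called, beside 3.69%: Apoe, higher by 1.56, and Ebp, which fell by 0.77. The thinned Apoe share of early GC-like CD45.2+ cells was below that of T cells. Without mouse 1, only Fdps was called, beside 0.341% of genes. Without mouse 2, 3 were called (Fdps, Cyp51 and Abcg1), beside 0.963% of genes, and without mouse 3, 12 were called, beside 13.9% of genes.

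Dock8cpm/cpm CD45.2+ cells were compared with Dock8wt/wt CD45.2+ cells to ask which genes depend on DOCK8. Here 0 of the 31 members passed the edgeR test, beside 0.146% of 10239 genes. At an unadjusted p under 0.05 there were 8, beside 800 of all genes, and DESeq2 called 0 members. The comparison rests on 56, 38 and 88 Dock8cpm/cpm cells, so that many members had few UMIs. Activated/memory-like cells were 1, 5 and 9 of these Dock8cpm/cpm cells and 467, 320 and 457 of 1627, 1928 and 1226 Dock8wt/wt cells. LZ-like cells were 21, 6 and 20 against 157, 467 and 152, and DZ-like cells 14, 11 and 23 against 369, 431 and 406. Early GC-like cells were 17, 14 and 35 against 562, 587 and 165. Cycling markers summed to 1070, 1027 and 1365 normalized UMIs in the Dock8wt/wt and 1408, 1459 and 1220 in the Dock8cpm/cpm cells. The parts of makeup and cycling in the result were not tested. Of the 20 enzymes 18 had a log2 difference below 0, with a median of -0.23 beside -0.02 over all genes, and the 4 export and sensing genes were all above 0. The CD45.1+ cells, Dock8wt/wt in both groups, also leaned this way for the enzymes. Of 19 tested there, 13 were below 0, with a median of -0.15 beside -0.00 over all genes. Of the 4 export and sensing genes, 2 were above 0 there.

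Insig1 was at 26.8, 26.8 and 25.3 normalized UMIs in the Dock8wt/wt and 8.27, 16.7 and 16 in the Dock8cpm/cpm mice, a log2 difference of -1.03 ± 0.29 (edgeR adjusted p = 0.187). Msmo1 was at 38.8, 43.6 and 41.1 against 5.51, 40.1 and 22.4, which overlapped (-1.03 ± 0.29, edgeR adjusted p = 0.181). Abca1 was at 12, 14.3 and 7.88 against 27.6, 30.1 and 22.4, a log2 difference of 1.04 ± 0.34 (edgeR adjusted p = 0.309). Abcg1 was at 27.7, 25.4 and 22.1 against 57.9, 43.5 and 33.5 (0.66 ± 0.23, edgeR adjusted p = 0.381). The groups did not overlap for Insig1, Abca1 and Abcg1, and for 8 of 31 members in all, beside 19.1% of genes.

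These differences moved with how cells were given to mice. With a hashtag rule that asks only for a 3-fold lead, the Dock8cpm/cpm mice held 219, 140 and 414 such cells, and the log2 differences were -0.42 for Insig1, -0.32 for Msmo1, 1.03 for Abca1 (edgeR adjusted p = 0.0793) and 0.39 for Abcg1. With the hashtags normalized over each cell, that of Abca1 was 0.81 (edgeR adjusted p = 0.0668). Apoe was at 129, 288 and 112 against 488, 211 and 228 (0.67 ± 0.29, edgeR adjusted p = 0.525). Its log2 difference was 0.30 under the 3-fold rule and -0.69 with plasma cells included. Without Dock8wt/wt mouse 2, in which Apoe was highest, it was 1.205 (edgeR adjusted p = 0.0116).

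**Figure D5:**
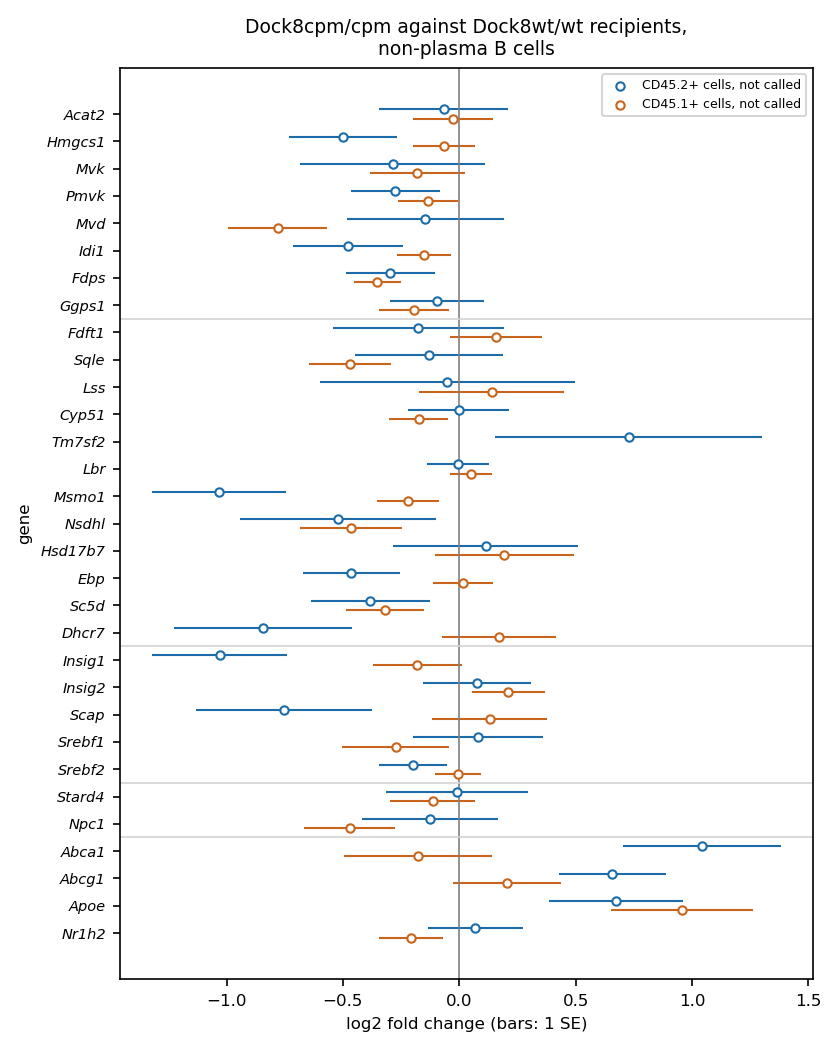
Log2 difference of Dock8cpm/cpm against Dock8wt/wt recipients (x axis) for the 31 genes (y axis), in CD45.2+ cells and in the CD45.1+ Dock8wt/wt cells of the same recipients, plasma cells left out. Bars are 1 SE over 3 mice per group. All points are open because no member passed an adjusted p of 0.05, Insig1 at -1.03 and Abca1 at 1.04 in CD45.2+ cells included.

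The CD45.1+ cells were Dock8wt/wt in both groups and ask whether wild-type cells differed beside mutant ones. No member passed the edgeR test (0 of 30 tested, since Tm7sf2 had too few UMIs), beside 0.0% of 8672 genes. Unadjusted p-values under 0.05 were found for 6 members and 602 genes in all. DESeq2 called 0 genes, and its unadjusted p-values were under that level for 192. Apoe was at 204, 473 and 102 normalized UMIs in the recipients of Dock8wt/wt cells and 573, 339 and 579 in those of Dock8cpm/cpm cells (0.96 ± 0.31, edgeR adjusted p = 0.548). Those groups overlapped through mouse 2 of each, and without Dock8wt/wt mouse 2 the log2 difference was 1.71 (edgeR adjusted p = 0.000514). Fdps was at 130, 127 and 122 against 93.9, 113 and 98.8, without overlap (-0.35 ± 0.10, edgeR adjusted p = 0.45). Mvd, the decarboxylase that ends the mevalonate steps, was at 20.4, 19.9 and 18 against 9.84, 12 and 12.8 (-0.78 ± 0.21, edgeR adjusted p = 0.44). The groups did not overlap for 5 members, beside 11.3% of genes.

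The difference between the 2 sorts was also compared between the groups, with the mouse as a block, to ask whether the genotype difference was larger in the CD45.2+ cells. Again 0 of 31 members passed, beside 0.0219% of 9146 genes. Of the 20 enzymes 14 were below 0, with a median log2 difference of -0.10 beside -0.01 over all genes. For 3 members the unadjusted p was under 0.05, as for 531 of all genes, and DESeq2 called 0 members. The largest of the 3 was Abca1, with a log2 difference of 1.35 ± 0.42 (edgeR adjusted p = 0.564), followed by Msmo1 at -0.82 and Insig1 at -0.81. With plasma cells included, Apoe passed the test at -1.65. This comparison shares its CD45.2+ and CD45.1+ samples with those above.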

How the data were processed

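Cells of 6 recipients (3 per group) were sorted as CD45.1+ or CD45.2+. Per the study's methods, the authors mapped the 10x reads to mm10-2020-A (GRCm38) with Cell Ranger 5.0.1 and worked in Seurat 4.0. The deposited matrices hold raw UMI counts per gene or hashtag and barcode, not normalized. Here barcodes found in both the mRNA and hashtag matrices were assigned with HTODemux (quantile 0.99), kept with under 10% mitochondrial UMIs and over 100 and under 5500 genes, and clustered in Seurat 5.3.0 (3000 variable genes without members, 30 components, resolution 0.9). Doublets were removed by hashtag. Scrublet, run on the cells left after that, called 4 in each library, and leaving out its highest scores (389 and 192 cells) was an alternative. Counts were summed per mouse and sort, and states with under 10 cells in a mouse were left out.

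Sums were tested with edgeR 4.0.16 (TMM, filterByExpr, quasi-likelihood) in R 4.3.3, adjusted by Benjamini-Hochberg over all genes, threshold 0.05. SE is the log2 difference over the root of F. DESeq2 1.42.0 was an alternative. Direction counts used genes with 10 or more UMIs and a pseudocount of 1 normalized UMI for medians. The members and lists were chosen with earlier results of these data known. All 31 members are accounted for, and other genes were to be named only from fixed lists. Nothing in the labels says more of the replicates than 1 hashtag per recipient. The sort comparison and its difference between groups pair the 2 sorts of the same mouse by design: the correlations of the paired deviations were -0.002, 0.194 and 0.051 in the Dock8wt/wt group and 0.012, 0.043 and 0.026 in the other. On simulated counts, 2-fold changes were recovered for 53% of genes in the CD45.2+ group comparison and 78% in the sort comparison. For the CD45.1+ group comparison it was 82%, and for the difference of the sorts between groups only 38%.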

Additional observations from a re-analysis of the deposited data

How the results depend on the processing

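The count of called members in the Dock8cpm/cpm comparison of CD45.2+ cells was 0. It was 2 with no filter on low counts (Apoe and Msmo1), beside 134 of 18677 genes. With plasma cells included it was 1 (Insig1), beside 123 of 10665 genes. In CD45.1+ cells it was 1 with no filter (Apoe), beside 56 of 14889 genes. For the difference of the sorts between groups it was 1 with plasma cells included (Apoe), beside 25 of 9571 genes. In the sort comparison it was 7, beside 3.2% of all genes tested, and the shares over all genes follow in brackets. It was 4 by DESeq2 (1.04%), 4 with the 3-fold hashtag rule (1.67%), 10 with no filter (4.36%) and 9 without the highest Scrublet scores (2.85%). It was 10 in LZ-like and DZ-like cells (14.6%) and 11 with plasma cells included (17.9%). In LZ-like cells it was 4 (8.67%), and in early GC-like and activated cells 2 (3.69%). Over all genes the sort comparison called 335, and 195 by DESeq2, 820 with no filter, 179 with the 3-fold rule, 1408 in LZ-like and DZ-like cells and 1971 with plasma cells included. It called 605 in LZ-like and 560 in DZ-like cells. The group comparison of CD45.2+ cells called 15 genes, and 105 by DESeq2, 134 with no filter, 123 with plasma cells included, 6 with the 3-fold rule, 1 in LZ-like and DZ-like cells, 2 in DZ-like cells and 3 in early GC-like and activated cells. That of CD45.1+ cells called 0, and 56 with no filter, 3 in DZ-like cells and 1 with plasma cells included. The difference of the sorts called 2, and 42 with no filter, 25 with plasma cells included and 0 with the 3-fold rule. The ratio of the summed enzymes in DZ-like to activated/memory-like CD45.2+ cells was 2.85, and 2.72 at resolution 0.6, 5.02 in UMIs per cell and 2.67 with the 3-fold rule. The cause of these changes was not tested. Leaving out 1 mouse gave 0 to 1 called members for the CD45.2+ groups, 0 to 1 for the CD45.1+ groups, 0 to 0 for the difference of the sorts, 1 to 12 for the sort comparison and 2.80 to 2.90 for the ratio.

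Without the replicate block the sort comparison called 8 members, beside 3.38% of genes, among them all 7 called with it. The difference between groups called 0 members without it. None of the 7 genes called in the sort comparison changed direction under the settings run. Apoe did: it was not called at -0.43, was called lower at -0.51 in LZ-like cells, and was called higher at 1.56 in early GC-like and activated cells and at 1.06 with plasma cells included. LZ-like cells alone could not be fitted for the CD45.2+ group comparison, since Dock8cpm/cpm mouse 2 had 6 of them. The low number of Dock8cpm/cpm cells limits what that comparison can show.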
